A study of Canis lupus familiaris with 22 samples.

Results

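Laminins and integrins are the genes described here: 36 genes, of 15115 measured in all, whose platform symbol is that of a laminin chain (10 genes) or begins as an integrin chain symbol does (26 genes) and is the only symbol of a probe set. They were read by 93 probe sets on Affymetrix canine arrays. The samples were 18 biopsies of naturally occurring, high grade canine invasive urothelial carcinoma (iUC), taken by cystoscopy from pet dogs before therapy, and 4 normal bladders of healthy dogs of matching age, against which the biopsies were set. Each sample was 1 array, and each array a separate dog's tissue as far as the labels tell. No tissue layer is named for the normal bladders. The values are log2 values that the authors centred on the median of each probe set over the 22 arrays. A value therefore says how far a sample lies above or below the middle of all samples, it gives no expression level, and levels of different genes cannot be compared.

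Laminins are secreted proteins of the basement membrane, the sheet on which an epithelium sits and which also wraps muscle cells and blood vessels. Each laminin is a trimer of an alpha, a beta and a gamma chain, and the alpha chain largely decides which cell receptor it binds. Integrins are receptors made of an alpha and a beta chain that span the cell membrane, bind laminin, collagen, fibronectin or proteins on other cells, and tie these outside ligands to the cytoskeleton. Basal cells of the urothelium hold to their basement membrane through hemidesmosomes, in which the dimer of ITGA6 and ITGB4 grips the laminin that contains LAMA3 and LAMB3. Smooth muscle, vessels and leukocytes each use other chains. By general knowledge of these roles the genes were placed in 5 classes: epithelial (10 genes), muscle and fibroblast (8), vessel and platelet (3), leukocyte (7), and shared or other (8). LAMA2 has no probe set under its own symbol in the annotation used, and ITGAD shares 1 with another gene, so these chains are not analysed here. ITGBL1 meets the rule by its symbol, although it encodes an integrin-like secreted protein and no receptor chain.

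Several features of the arrays bear on all values below. The 7 iUC arrays with the highest mean of the 17 Tag control probe sets (0.28 to 0.46, against -0.13 to 0.13 in the other 11 iUC arrays) also had the lowest mean over all probe sets, at -0.10 to -0.07, while the other 11 lay between 0.07 and 0.09. Normal bladder replicates 3 and 4 correlated at 0.934 over all probe sets, and the other normal pairs at 0.426 to 0.761. The sample labels have 2 endings, and the iUC samples share theirs with normal bladder replicate 1 only. The tissue labels were checked against marker genes. The mean of 10 smooth muscle genes was -0.68 to 1.51 in iUC, against 2.96 to 4.79 in normal bladder, and 8 of the 10 were lower in iUC. The mean of 12 urothelium genes was -1.20 to 0.64 in iUC, against -0.54, -0.23, -1.82 and -3.38 in normal bladder replicates 1 to 4, and 7 of the 12 were higher in iUC. Fibroblast genes had means of -1.50 to 0.87 in the iUC samples and 0.74 to 1.96 in the normal samples (6 of 9 lower and 1 higher), endothelial genes -0.54 to 1.31 in iUC and 0.28 to 1.33 in normal bladder (3 of 9 lower), and leukocyte genes -0.69 to 1.24 in iUC and 0.10 to 1.84 in normal bladder (2 of 12 lower). Centred values do not show which markers are absent from a sample. In bulk tissue, fewer cells of a type and less RNA per cell cannot be told apart, and the part that tissue makeup plays in the differences below was not tested.

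Of the 36 genes, LAMB3, ITGA3 and ITGB6 of the epithelial class were higher in iUC. LAMA4 of the vessel and platelet class, ITGA5 of the muscle and fibroblast class and ITGBL1 of the shared or other class were lower, and 30 genes were not called. Called here means an adjusted p of at most 0.05 by limma, with Benjamini-Hochberg adjustment over all 15115 genes, together with a difference of at least 2-fold. The 3 higher genes are 8.33% of the 36, beside 3.68% of all genes, and the 3 lower genes are also 8.33%, beside 8.64% of all genes. The share lower is thus near that of the array as a whole, and with 3 genes the share higher rests on few. The median log2 fold change was 0.12 over the 36 genes and 0.08 over all genes. Scaling each array to its 75th percentile moved the median of all genes by 0.12 and gave 807 genes higher and 1080 lower, against 556 and 1306 as deposited and 295 and 431 with quantile normalization. The 36 genes had 3 higher and 3 lower under each of these scalings. A further 6 genes passed the adjusted p and lay under 2-fold, where 35.7% of all genes passed that p at any fold: LAMA5, ITGAV, ITGA8 and ITGB3 with positive values, and ITGB1 and ITGB5 with negative ones. None of the 36 parted the 18 iUC samples from the 4 normal samples without overlap, whereas 3.22% of all genes did so upward and 4.47% downward.

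**Figure D1:**
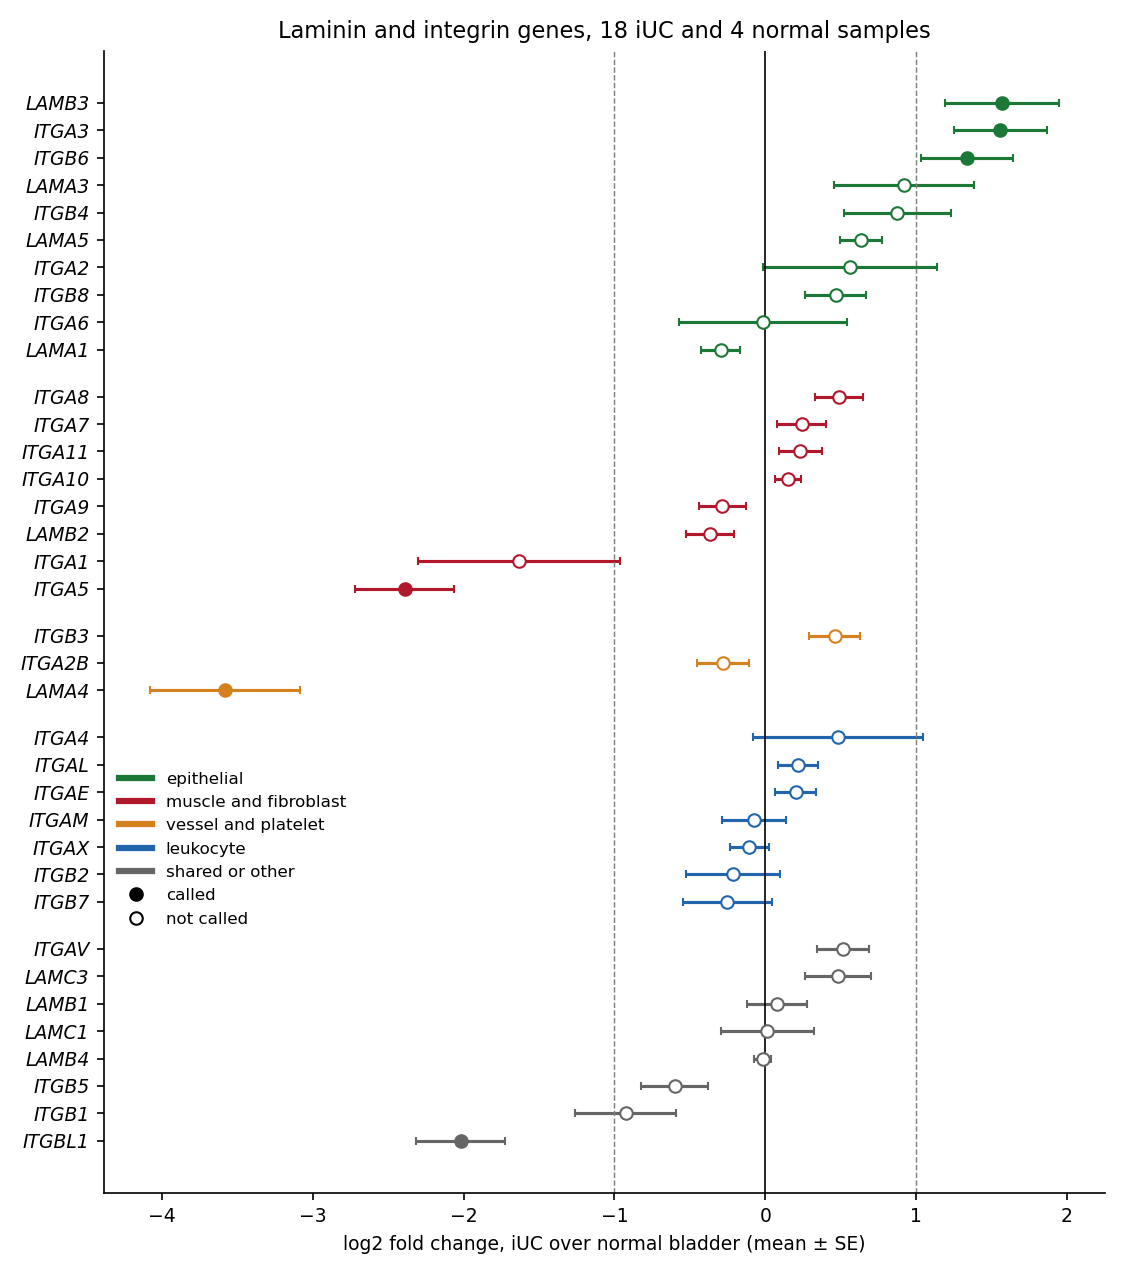
Log2 fold change of iUC over normal bladder (x axis, log2 units, bars are the standard error) for the 36 laminin and integrin genes, grouped by chain class and coloured by it. Filled points are called and open points are not. The 3 called rises, from 1.34 to 1.57, all lie in the epithelial class, and LAMA4 lies farthest to the left at -3.59.

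The epithelial class leaned upward, with 8 of 10 fold changes above 0 and a class median of 0.75 on the log2 scale, beside 0.08 over all genes. The class median was 1.13 without the 7 arrays of high Tag signal and 0.55 with them alone. It was 0.53 without normal bladder replicate 4, and 0.28 in the fit that blocks on the label ending. LAMB3 is the beta chain of the laminin of hemidesmosomes. Its values in the iUC samples ran from -1.13 over a median of 0.13 to 1.58, and in normal bladder replicates 1 to 4 they were -0.68, -1.03, -1.81 and -2.09. Thus 15 of 18 iUC samples lay above every normal sample, and the 3 that did not were among the 7 arrays of high Tag signal. The mean was 0.17 ± 0.73 in iUC and -1.40 ± 0.66 in normal bladder (SD, n = 18 and 4), a rise of 2.97-fold (log2 fold change 1.57 with a standard error of 0.38, adjusted p = 0.00351 by limma). Both of its probe sets were called, at 1.47 and 1.67. LAMA3, the alpha chain of the same trimer, ran from -1.79 over 0.20 to 1.01 in the iUC samples, against -0.59, -0.20, -1.16 and -1.73 in normal bladder replicates 1 to 4. Its log2 fold change of 0.92 (standard error 0.46) was not called (adjusted p = 0.116). Of its 3 probe sets, 1 was called higher at 1.51, 1 had a value of 1.08 with a standard error of 0.93, and 1 had 0.17.

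Both chains lay lower in the 7 arrays of high Tag signal, a difference that was not tested. For LAMA3 the other 11 iUC arrays had a median of 0.54, and the 7 arrays of high Tag signal a median of -0.75. Without those 7 arrays the log2 fold change of LAMA3 was 1.37 (adjusted p = 0.00252 by limma) and that of LAMB3 was 1.96 (adjusted p = 0.000478). With the 7 arrays alone set against normal bladder, LAMA3 had 0.22 (adjusted p = 0.721) and LAMB3 0.96, which is under 2-fold (adjusted p = 0.0193). In the normal samples both chains were lowest in replicates 3 and 4, where the urothelium marker mean was also lowest, at -1.82 and -3.38, and its part in these rises was not tested. Of all genes, 5.23% were called higher and 5.96% lower without the 7 arrays, and 7.16% higher and 17.4% lower with them alone.

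ITGB4, the beta chain of the hemidesmosome integrin, had values from -0.97 over -0.01 to 1.47 in iUC, against 0.24, -0.61, -1.11 and -2.09 in normal bladder replicates 1 to 4. Normal bladder replicates 1 and 2 lay within the iUC range, and replicates 3 and 4 below all 18 iUC samples. The log2 fold change was 0.88 (standard error 0.36, adjusted p = 0.0578 by limma), and 1 of its 2 probe sets was called higher at 1.25. It was called without normal bladder replicate 1 (1.25, adjusted p = 0.0122) and had 0.48 without replicate 4. ITGA6, its alpha partner, ran from -1.86 over -0.03 to 1.62 in iUC, against 0.39, 0.89, -0.48 and -0.83 in normal bladder replicates 1 to 4. All 4 normal samples lay within the iUC range, its log2 fold change was -0.01 with a standard error of 0.56, and 0 of its 4 probe sets were called. Its spread among the iUC samples (SD 1.10) was larger than that of 97.9% of all genes.

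ITGA3 and ITGB6 were the integrin chains called higher. ITGA3 pairs with ITGB1 into a receptor that holds epithelial cells to laminin outside hemidesmosomes. It ran from -0.30 over 0.03 to 1.39 in the iUC samples, against -0.15, -1.38, -1.80 and -1.87 in normal bladder replicates 1 to 4. Normal bladder replicate 1 lay within the range of the iUC samples and the other 3 normal samples lay below all of them. The rise was 2.95-fold (log2 fold change 1.56 with a standard error of 0.31, adjusted p = 0.000615 by limma), from a single probe set. ITGB6 pairs with ITGAV into a receptor of epithelia that binds fibronectin and activates latent TGF-beta. It ran from -0.64 over 0.17 to 1.78 in the iUC samples and was -1.10, -0.58, -1.18 and -1.24 in normal bladder replicates 1 to 4. All but 1 of the iUC samples lay above every normal sample, and the rise was 2.53-fold (log2 fold change 1.34 with a standard error of 0.30, adjusted p = 0.00204 by limma). Its 5 probe sets fell into 3 that were called, at 1.19, 2.33 and 3.05, and 2 that barely varied, at 0.04 and 0.10, and the mean over all 5 is pulled down by these 2. In the fit with the 7 arrays of high Tag signal alone its log2 fold change was 0.95 (adjusted p = 0.00269), under 2-fold.

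The other epithelial chains were not called. LAMA5, an alpha chain of most adult epithelial and vessel basement membranes, was -0.16 to 0.65 in iUC with a median of 0.09, and -0.09, -0.43, -0.72 and -0.61 in normal bladder replicates 1 to 4. Of the iUC samples 16 lay above all normal samples, by a log2 fold change of 0.63 (standard error 0.14, adjusted p = 0.00151 by limma) that stays under 2-fold. The LAMA5 median was 0.45 in the 7 arrays of high Tag signal and -0.01 in the other 11 iUC arrays. ITGB8, another partner of ITGAV, had 0.47 (standard error 0.20) and ITGA2, the alpha chain of a collagen and laminin receptor, 0.56 (standard error 0.58). ITGA2 varied widely among the tumours, from -1.67 to 1.66, and its median was 0.97 in the other 11 iUC arrays and -1.47 in the 7 of high Tag signal. Its log2 fold change was 1.15 without the 7 arrays (adjusted p = 0.0528 by limma) and -0.37 with them alone (adjusted p = 0.567), so its direction turned with the set of arrays, and it was called at 1.24 with array weights, which count arrays of larger residuals less (adjusted p = 0.0142). LAMA1, an alpha chain used mostly in the embryo, had -0.30 (standard error 0.13), with 1 of 3 probe sets called lower at -1.22 and the others at 0.12 and 0.20.

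**Figure D2:**
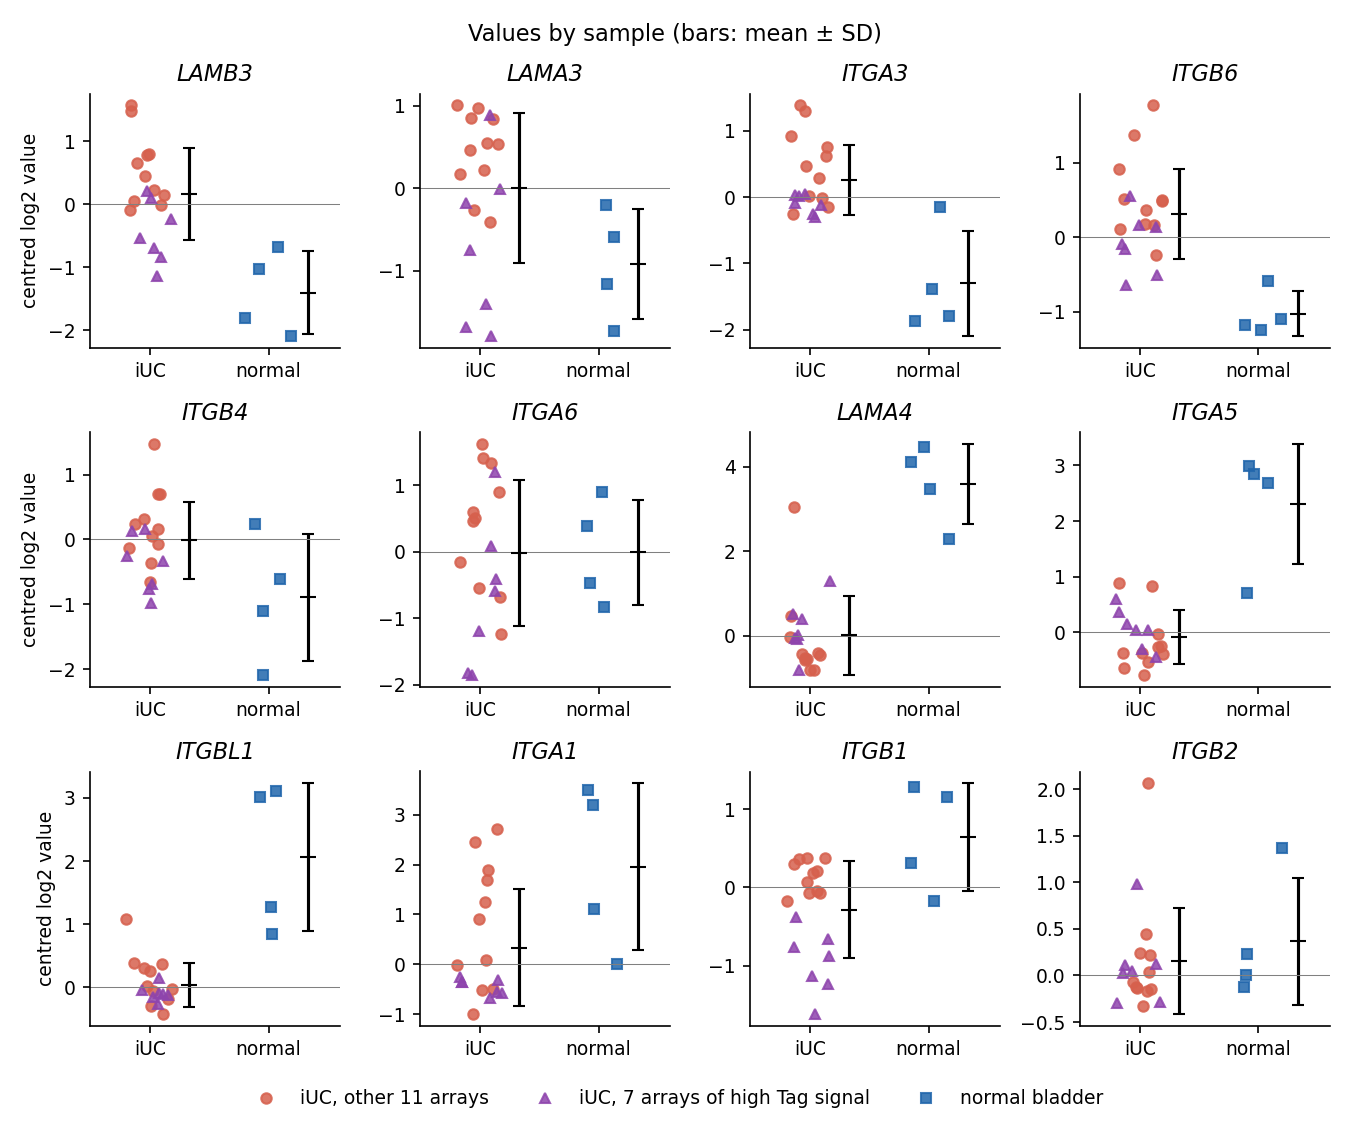
Centred log2 values (y axis) of 12 laminin and integrin genes in each iUC sample and each normal bladder, with black bars for the mean ± SD of the group. Triangles are the 7 iUC arrays of high Tag signal, circles the other 11. Of the iUC samples 17 lie above every normal sample for ITGB6, and 17 lie below every normal sample for LAMA4.

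LAMA4, the alpha chain of the laminins around capillaries, smooth muscle and fat cells, showed the largest change of the 36 genes. It ran from -0.83 over -0.25 to 3.05 in the iUC samples and was 3.48, 2.30, 4.11 and 4.47 in normal bladder replicates 1 to 4. All but 1 of the iUC samples lay below every normal sample, and the exception was iUC replicate 12 at 3.05, where the next highest iUC sample had 1.29. The fall was 12.0-fold (log2 fold change -3.59 with a standard error of 0.50, adjusted p = 1.49e-05 by limma), and the 4 probe sets were all called lower, between -4.59 and -2.65. Normal bladder replicate 2, the lowest of the normal samples for LAMA4, also had the lowest smooth muscle marker mean of them, at 2.96. iUC replicate 12 had the highest endothelial marker mean of the iUC samples, at 1.31, and a smooth muscle mean of 0.32. Other samples did not follow the markers in this way. The highest smooth muscle mean of the iUC samples was 1.51, in replicate 5, where LAMA4 was 0.02. Normal bladder replicate 1 had the lowest endothelial mean of the normal samples, at 0.28, with LAMA4 at 3.48. The part of tissue makeup in these values was not tested. The other 2 genes of the vessel and platelet class pair into the fibrinogen receptor of platelets: ITGB3 had a log2 fold change of 0.46 (standard error 0.17, adjusted p = 0.0393, under 2-fold) and ITGA2B -0.28 (standard error 0.17). ITGB3 also pairs with ITGAV on the vessel wall.

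ITGA5, the alpha chain of the main fibronectin receptor, was the 1 called gene of the muscle and fibroblast class. It ran from -0.78 over -0.27 to 0.88 in the iUC samples, against 2.85, 0.70, 2.69 and 2.99 in normal bladder replicates 1 to 4. Normal bladder replicate 2 lay within the iUC range, and the other 3 normal samples lay far above it. The fall was 5.25-fold (log2 fold change -2.39 with a standard error of 0.33, adjusted p = 1.17e-05 by limma), and both probe sets were called, at -3.30 and -1.48. Without normal bladder replicate 2 the log2 fold change was -2.93. ITGBL1, the integrin-like secreted protein, ran from -0.42 over -0.05 to 1.09 in iUC and was 1.27, 0.85, 3.11 and 3.02 in normal bladder replicates 1 to 4. In iUC replicate 17 it was 1.09, above normal bladder replicate 2, and the other iUC samples lay below all normal samples. The fall was 4.05-fold (log2 fold change -2.02 with a standard error of 0.30, adjusted p = 2.82e-05 by limma), from 1 probe set.

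Other muscle and fibroblast chains were not called, and the class of 8 split into 4 positive and 4 negative fold changes. ITGA1, a collagen and laminin receptor chain of smooth muscle and other stromal cells, ran from -1.002 over -0.29 to 2.72 in iUC and was 0.01, 1.11, 3.51 and 3.21 in normal bladder replicates 1 to 4. It had the widest spread of the 36 genes among the iUC samples (SD 1.18), and its log2 fold change of -1.63 (standard error 0.67, adjusted p = 0.0596 by limma) was called only when normal bladder replicate 1 was left out, of the 4 fits that each leave out 1 normal sample (-2.28, adjusted p = 0.0163). Among the 7 arrays of high Tag signal it lay between -0.67 and -0.25, and with these alone it was called at -2.40 (adjusted p = 0.00272). Array weights also gave a call, at -2.47 (adjusted p = 0.000620). It had -1.14 without the 7 arrays (adjusted p = 0.247), and in the fit that blocks on the label ending the direction turned, at 0.31 (adjusted p = 0.933). ITGA7, the laminin receptor chain of muscle, ran from -0.48 over 0.01 to 0.73 in iUC, against -0.40, -0.37, -0.22 and 0.01 in normal bladder replicates 1 to 4. Its log2 fold change was 0.24 (standard error 0.16, adjusted p = 0.231), and none of its 5 probe sets was called, with values from -0.20 to 0.86. Those at 0.27, 0.37 and 0.86 passed the adjusted p under 2-fold (0.0480, 0.0389 and 0.000147 by limma over all probe sets). Those at -0.20 and -0.09 did not pass it. The median log2 fold change of the 10 smooth muscle markers between the same samples was -4.65. ITGA8, whose product joins ITGB1 in a receptor of smooth muscle and mesenchyme for nephronectin, had 0.49 (standard error 0.16, adjusted p = 0.0224), under 2-fold. LAMB2, a beta chain of muscle and vessel laminins, had -0.36 (standard error 0.16), although 2 of its 6 probe sets were called lower at -1.53 and -1.05. ITGA9, ITGA10 and ITGA11, receptor chains for tenascin and collagens, lay between -0.28 and 0.23.

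Leukocyte integrins showed no called change. ITGB2, the beta chain shared by the leukocyte integrins, ran from -0.33 over 0.04 to 2.07 in iUC and was 1.37, 0.00, 0.23 and -0.13 in normal bladder replicates 1 to 4. The highest iUC samples were replicate 11 at 2.07 and replicate 4 at 0.98, with leukocyte marker means of -0.37 and 1.24, and normal bladder replicate 1 stood high in its group. The log2 fold change was -0.21 (standard error 0.31, adjusted p = 0.593 by limma). Of its partners, ITGAL of lymphocytes had 0.22, ITGAM of neutrophils and macrophages -0.08 and ITGAX of dendritic cells and macrophages -0.11, with adjusted p from 0.195 to 0.788. ITGAL ran from -0.22 over 0.02 to 0.52 in iUC, against 0.10, -0.21, -0.12 and -0.26 in normal bladder replicates 1 to 4, and ITGAX from -0.53 over 0.00 to 0.26 in iUC, against 0.13, -0.07, -0.15 and 0.29. ITGAM ran from -0.37 over 0.01 to 0.29 in iUC, against 1.44, -0.37, -0.31 and -0.55 in normal bladder replicates 1 to 4, and the leukocyte marker mean was also highest there of all 22 samples, at 1.84. ITGAE, the chain by which resident T cells bind E-cadherin, had 0.20 (standard error 0.14), and ITGB7, its partner, -0.25 (standard error 0.29). The ITGAE value averages probe sets of opposite direction, at -0.34, 0.05 and 0.90. Those at -0.34 and 0.90 passed the adjusted p under 2-fold (0.00491 and 0.0254 by limma over all probe sets). ITGA4, the chain that lets leukocytes bind VCAM1, was near 0 in the median iUC sample and high in a few. It was 4.14 in iUC replicate 15, 2.26 in replicate 2 and 1.91 in replicate 16, against -0.17 to 0.23 in the normal samples, and the log2 fold change was 0.48 (standard error 0.56, adjusted p = 0.500 by limma). The leukocyte marker means of those samples were 0.04, 0.36 and 0.18, well within the iUC range, and the array has 1 probe set for this gene.

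The shared or other chains lay under 2-fold, apart from ITGBL1. ITGB1, the beta chain that most alpha chains need, ran from -1.62 over -0.07 to 0.37 in iUC and was 0.31, -0.17, 1.15 and 1.28 in normal bladder replicates 1 to 4. All 7 arrays of high Tag signal lay at -0.38 or below, and the other 11 iUC arrays at -0.18 or above. The log2 fold change was -0.93 (standard error 0.33, adjusted p = 0.0365 by limma). It was -0.50 without the 7 arrays (adjusted p = 0.0716) and -1.59 with them alone (adjusted p = 0.000728), so the size of this change moves with the set of arrays. Without normal bladder replicates 1 and 2 in turn it was called, at -1.04 and -1.20, and without replicates 3 and 4 the adjusted p was 0.148 and 0.164. ITGAV, the partner of ITGB6, ITGB8, ITGB5 and ITGB3, ran from -0.45 over 0.07 to 0.67 in iUC and was -0.29, -0.72, -0.34 and -0.38 in normal bladder replicates 1 to 4. Its log2 fold change was 0.52 (standard error 0.17, adjusted p = 0.0234 by limma), and 15 of 18 iUC samples lay above all normal samples. The ITGAV median was -0.25 in the 7 arrays of high Tag signal and 0.23 in the other 11 iUC arrays, a difference that was not tested. ITGB5, a vitronectin receptor chain, had -0.60 (standard error 0.22, adjusted p = 0.0407), with 2 of 5 probe sets called lower. Its median was -0.40 in the 7 arrays of high Tag signal and 0.32 in the other 11, against 0.20 to 1.03 in normal bladder. That difference between the sets of arrays was not tested. LAMC1, the gamma chain of most laminins, had 0.01 (standard error 0.31), and LAMB1, its usual beta partner, 0.08 (standard error 0.20). LAMC3 had 0.48 (standard error 0.22) and LAMB4 -0.02 (standard error 0.06), with the smallest SD among iUC samples of the 36 genes, at 0.07.

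Probe sets of 1 gene often disagreed. Of the 36 genes, 22 had 2 or more probe sets and 14 had 1. A gene was then counted when 1 or more of its probe sets passed the test over all 42924 probe sets. By this count 7 of the 36 genes were higher and 7 of the 36 lower. Of all 15115 genes, 1090 were higher (7.21%) and 2179 lower (14.4%), so both shares were larger among the 36. Of the 93 probe sets, 10 were higher (10.8%, beside 3.90% of all probe sets) and 13 lower (14.0%, beside 10.7%). Of the 22 genes with 2 or more probe sets, 12 had 1 or more called (54.5%, beside 30.1% of all such genes), and a gene with more probe sets has more chances to be counted. The 8 genes added by this count are LAMA3, ITGB4, ITGAV and LAMB1 upward, and LAMA1, LAMB2, ITGB1 and ITGB5 downward. No gene of the 36 had probe sets called in both directions, beside 0.192% of all genes. LAMB1 had the most probe sets: 8 of its 9 probe sets lay between -0.71 and 0.41, and 1 was called higher at 1.39 (adjusted p = 0.000738 by limma over all probe sets). Probe sequences were not used here, so whether such probe sets read another part of the transcript was not tested.

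**Figure D3:**
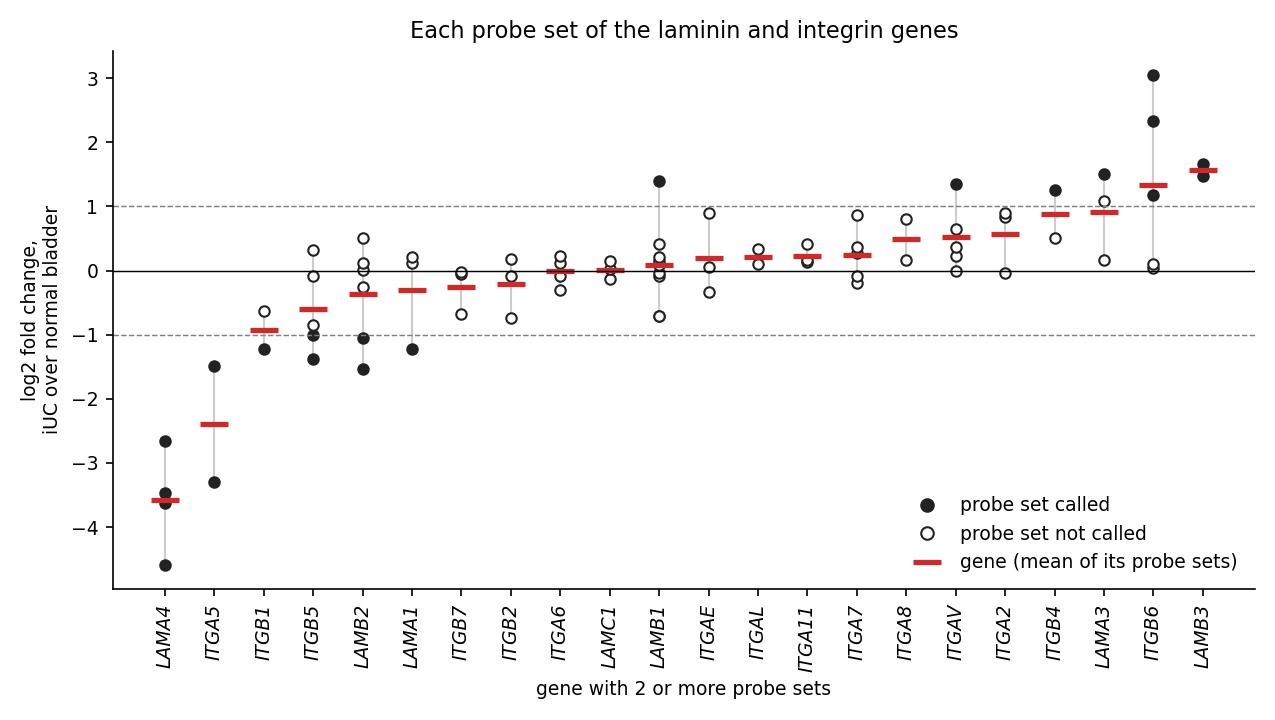
Log2 fold change of iUC over normal bladder (y axis, log2 units) for each probe set of the 22 laminin and integrin genes with 2 or more probe sets. Filled points were called, open points were not, and red bars mark the mean of the gene's probe sets. All 4 probe sets of LAMA4 and both of LAMB3 were called, while ITGB6 combines 3 called probe sets with 2 near 0.

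Among the tumours, the laminin and integrin genes varied to different degrees. The median SD among the 18 iUC samples was 0.40 over the 36 genes, beside 0.34 over all genes, and 6 of the 36 (16.7%) lay above the 90th percentile of all genes at 0.77: ITGA1, ITGA4, ITGA2, ITGA6, LAMA4 and LAMA3. iUC replicate 12 had the highest value of the iUC samples for LAMA3, LAMA4, LAMB2, LAMC1, ITGA1, ITGA2, ITGA5, ITGA6, ITGB1 and ITGB6. These 10 are 27.8% of the 36, and the same array was highest for 6.48% of all genes. Between the 7 arrays of high Tag signal and the other 11 iUC arrays, ITGA9, ITGA11, ITGAE, ITGAL and LAMC3 were higher in the 7 without overlap (13.9% of the 36, beside 15.9% of all genes), and ITGB1 was lower (2.78%, beside 12.8%).

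Chains that assemble into 1 protein were set against each other across tumours, separately in the 7 arrays of high Tag signal and in the other 11. These 2 sets were formed by rank of Tag signal. They also differ in the mean over all probe sets, at -0.10 to -0.07 against 0.07 to 0.09. Over 19 pairs, 38 correlations were computed with Pearson's r and again with Spearman's rho, and p-values came from permutation, exact for 7 samples. None of the 38 passed Benjamini-Hochberg adjustment by either measure (lowest permutation adjusted p = 0.485 for r and 0.862 for rho), and 3 values of r had an unadjusted p of 0.05 or below. Pearson's r ran from -0.60 to 0.75 in the 7 arrays and from -0.29 to 0.68 in the other 11, where 16 of 19 were above 0. LAMA3 and LAMB3 had r = 0.48 and rho = 0.55 in the 11 arrays (permutation p = 0.129 and 0.0820, n = 11), and r was 0.22 without the 2 samples farthest from the median of LAMA3. In the 7 arrays they had r = 0.40 and rho = 0.39 (exact permutation p = 0.359 and 0.396, n = 7), and r was 0.90 without the 2 farthest samples. LAMA4 and LAMC1 had r = 0.75 and rho = 0.79 in the 7 arrays (exact permutation p = 0.0383 and 0.0480, n = 7), and r was 0.89 without the 2 farthest samples. They had r = 0.68 and rho = 0.19 in the 11 arrays (permutation p = 0.0316 and 0.578, n = 11), and r was -0.09 without the 2 farthest samples, which include iUC replicate 12, so the relation rests on those. LAMB2 and LAMC1 had r = 0.67 and rho = 0.45 in the 11 arrays (permutation p = 0.0246 and 0.171, n = 11), and r was 0.39 without the 2 farthest samples. ITGA6 and ITGB4 had r = 0.20 in the 11 arrays (permutation p = 0.562, n = 11) and -0.25 in the 7 arrays (exact permutation p = 0.593, n = 7).

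Genes that laminins and integrins work with were lower more often than higher in iUC. Of 111 such genes in 5 lists, 33 were lower (29.7%, beside 8.64% of all genes), 3 were higher (2.70%, beside 3.68%) and 75 were not called. Of the fibroblast markers, 4 are also in these lists and among the 33 (COL1A1, COL1A2, COL3A1 and FBLN1). The lists also hold 1 urothelium marker, CDH1, called higher, and 1 endothelial marker, VWF, not called. They hold 0 of the smooth muscle markers, but do hold other muscle genes, such as NEXN and ITGB1BP2. The focal adhesion plaque, the complex inside the cell that links integrins to actin, had 13 of 40 genes lower and 1 higher (list median -0.27). NEXN, an actin-binding protein of muscle, had a log2 fold change of -3.70 (adjusted p = 3.6e-09 by limma, standard error 0.28), and FERMT2, a kindlin that activates integrins, fell by 3.08 (standard error 0.45). RSU1, a partner of the ILK complex, fell by 2.18 (standard error 0.30), and ITGB1BP2, a muscle protein that binds the ITGB1 tail, fell by 2.12 (standard error 0.23). ILK itself, the kinase-like scaffold on integrin tails, fell by 1.73 (standard error 0.27), and TLN1, the talin that couples integrins to actin, fell by 1.26 (standard error 0.16). BCAR1, a docking protein of focal adhesions, rose by 1.01 (standard error 0.27).

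The dystroglycan complex, the other laminin receptor of muscle, had 5 of 13 genes lower and none higher (list median -0.17). SGCE, a sarcoglycan, had a log2 fold change of -4.03 (adjusted p = 4.63e-11 by limma, standard error 0.24), SNTB2, a syntrophin, had -1.95 (standard error 0.44), DTNA, a dystrobrevin, -1.54 (standard error 0.25), and DMD, the dystrophin gene, -1.20 (standard error 0.15). DAG1, which encodes dystroglycan itself, the chain that binds laminin, had 0.10 (standard error 0.37, adjusted p = 0.843), and UTRN, the utrophin that can take the place of dystrophin, 0.51 (standard error 0.14, adjusted p = 0.00645), under 2-fold. For SGCE, SNTB2 and DMD every iUC sample lay below every normal sample. Of 32 integrin ligands, 11 were lower and 1 was higher (list median -0.22). TNC, the matrix protein tenascin C, fell by 3.95 (standard error 0.28), COL1A2 and COL1A1, the chains of type I collagen, had log2 fold changes of -3.17 (standard error 0.53) and -3.03 (standard error 0.59), and COL3A1, the type III collagen chain, had -2.35 (standard error 0.39). FN1, the fibronectin bound by ITGA5 and ITGB1, fell by 1.69 (standard error 0.64, adjusted p = 0.0453). CDH1, the E-cadherin bound by ITGAE, rose by 3.06 (standard error 0.40). Of 19 other basement membrane genes, SPARC, SMOC2, FBLN1 and COL4A6 were lower, with log2 fold changes of -2.49 to -1.45, and FREM2, an anchoring protein of epithelial basement membranes, was higher at 1.03 (list median -0.12). None of the 7 measured genes of hemidesmosomes and anchoring was called: COL17A1, a collagen that crosses the basal cell membrane, had 0.07 (standard error 0.10), PLEC, the linker to keratin, 0.68 (standard error 0.18, adjusted p = 0.00733), and DST, another linker, -0.68 (standard error 0.15, adjusted p = 0.00182).

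**Figure D4:**
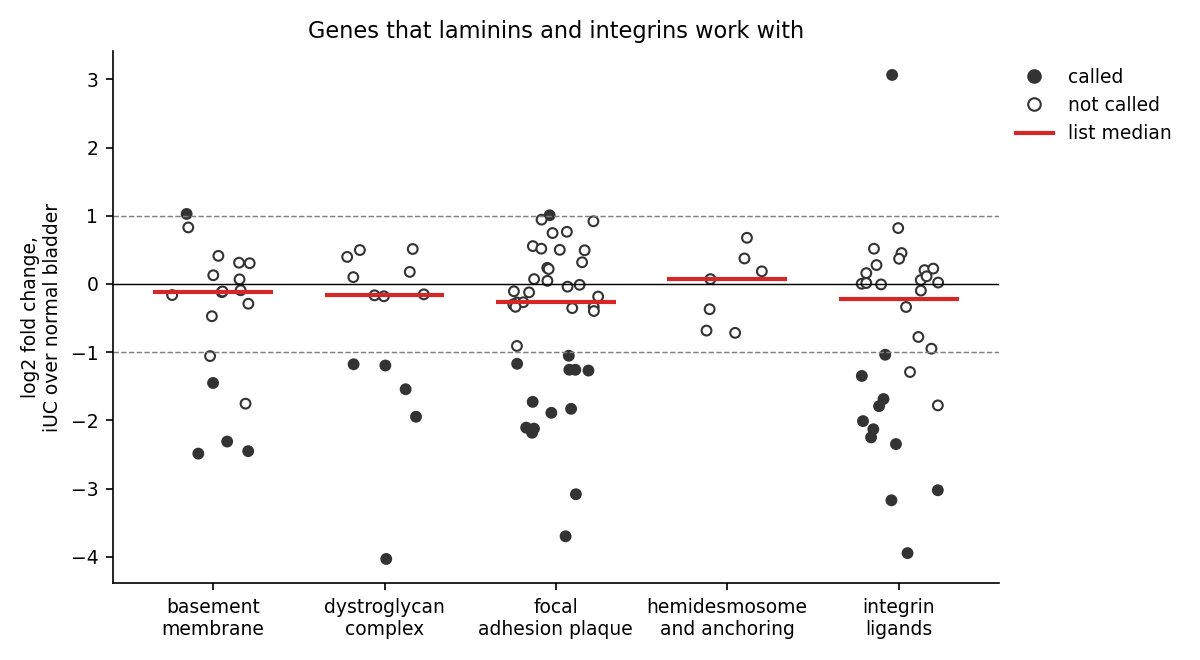
Log2 fold change of iUC over normal bladder (y axis, log2 units) for genes of 5 lists around laminins and integrins, each point 1 gene and each red bar the median of its list. Filled points were called. Called genes lie mostly below 0 in 4 lists, and the 7 genes of hemidesmosomes and anchoring hold none.

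Within 1 label ending only normal bladder replicate 1 can be set against the iUC samples. With the ending as a block, LAMA4 had a log2 fold change of -3.48 and ITGA5 -2.94. LAMB3 had 0.85, ITGA3 0.41, ITGB6 1.41 and ITGBL1 -1.22. ITGAM and ITGA2B, both high in normal bladder replicate 1, also had negative values. That fit rests on 1 normal sample. For all of these genes the label ending and the normal samples that carry it cannot be told apart. The fold changes of LAMB3, ITGA3 and ITGBL1 were smaller in size in that fit (1.57, 1.56 and -2.02 without the block), and that of LAMA4 slightly so (-3.59). Those of ITGB6 and ITGA5 were not smaller (1.34 and -2.39 without the block).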

How the data were processed

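RNA of 18 iUC and 4 normal bladder samples, 5 µg each, was hybridised to Affymetrix canine arrays. The authors analysed the arrays in GeneSpring GX 12.6.1 and deposited log2 values of 43035 probe sets, centred on each probe set's median over the 22 arrays. The methods and labels name neither the probe summarisation nor the normalization between arrays. Centred values hold no level, so the low-expression filter of the methods was not applied.

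After 111 control probe sets were set aside, 29254 of 42924 had 1 symbol in the platform annotation, 439 several and 13231 none. A gene's value is the mean of its probe sets. The iUC samples were set against normal bladder by linear models without covariates and moderated variances (limma 3.58.1 under R 4.3.3), with p-values adjusted over all genes and a limit of 0.05 and 2-fold. Tables were handled with pandas 2.3.3 under Python 3.11. In simulated data over 15115 genes, this comparison recovered 88% of genes changed by 1.5 on the log2 scale and 90% of those changed by 2, with 1 false call. The simulated samples were independent, with the same SD in both groups and without the sets of arrays or label endings. Recovery and false calls under those features of the real arrays were not tested. The number of normal samples limits precision.

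The members, chain classes and gene lists were chosen with earlier results of these data known. Every member is accounted for. Values by sample are given for called members and for subunits of the LAMA3 laminin, of the dimers of ITGA6 and ITGB4, ITGAV and ITGB6, and ITGA7 and ITGB1, and of the ITGB2 family. Up to 4 called genes of largest change were named per other list and direction. Further genes and per-sample values (such as ILK, TLN1, DAG1, UTRN, FN1, ITGA1, ITGA4 and LAMA5) were chosen after their values were seen. Alternatives are given in the closing section.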

Additional observations from a re-analysis of the deposited data

Results flagged for a closer look

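In the 4 normal samples, 2 of the 36 genes had 1 sample far from the other 3, by a gap to its nearest neighbour above Dixon's critical share of the group's range. Chance gives such a gap in about 1 in 20 groups. ITGA5 was 0.70 in normal bladder replicate 2, against 2.69 to 2.99 in the other 3 normal samples. The smooth muscle marker mean was also lowest there of the normal samples, at 2.96. ITGAM was 1.44 in normal bladder replicate 1, against -0.55 to -0.31 in the other 3, and the leukocyte marker mean of that sample was 1.84. The part of tissue makeup in either value was not tested.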

How the results depend on the processing

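Each of the 6 called genes was fitted under 16 alternatives. Of these 96 values, 84 stayed called and 12 did not, and 0 changed direction. LAMA4 stayed called in all 16. ITGA3 lost its call under the block of label endings and ITGA5 with the replicate number as a block. ITGBL1 lost it in both fits, and LAMB3 in both and with the 7 arrays of high Tag signal alone. ITGB6 also lost it in these 3 fits, with the median of its probe sets, and over replicates 1 to 4 without a block. Among the other 30 genes, 22 of the alternative values were called and 45 changed sign without a call. Of 80 class medians, 3 moved by more than the SD of the normal samples: epithelial chains had 1.29 with array weights, shared or other chains -0.43 with the 7 arrays alone, and vessel and platelet chains -1.26 under the block of label endings. Of 228 alternative correlations 33 changed sign, and none was called.

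The counts of higher and lower genes among the 36 (3 and 3) became 6 and 5 with array weights, 4 and 6 with the probe set of largest variance, 5 and 3 without the 7 arrays of high Tag signal, 1 and 6 with those 7 alone, 0 and 4 under the block of label endings, and 7 and 7 when 1 called probe set sufficed. Leaving out each normal sample in turn gave 3 to 4 higher and 3 to 5 lower, the 5 without normal bladder replicate 1. Of the genes around them (3 higher and 33 lower), 5 were higher with scaling to the 75th percentile, 6 with array weights, 9 with the probe set of largest variance, 5 without the 7 arrays and 5 with them alone. Under the block of label endings 0 were higher and 14 lower, and quantile normalization gave 20 lower. Leaving out normal samples gave 2 to 5 higher and 29 to 37 lower. Over all genes (556 higher and 1306 lower), scaling to the 75th percentile gave 807 and 1080, quantile normalization 295 and 431, array weights 1065 higher, the probe set of largest variance 935 and 2044, the 7 arrays alone 1082 and 2623, the block of label endings 15 and 389, and normal bladder replicates 3 and 4 averaged into 1 sample 312 higher. Leaving out normal samples gave 298 to 716 higher and 967 to 1495 lower. The cause of these shifts was not tested. The fits with the 7 arrays alone, over replicates 1 to 4 without a block and by single probe sets were chosen after seeing the data, and a filter on low values could not be run.

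Samples of the 2 groups share replicate numbers 1 to 4, but their deviations correlated at -0.17, 0.06, -0.05 and 0.13, so they share only a number. With the replicate block, 2 of the 36 genes were higher and 1 lower, against 2 and 3 over the same 8 samples without it. Over all genes the block gave 215 higher and 349 lower, against 437 and 1101, and of the surrounding genes 1 higher and 10 lower, against 1 and 22.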
